A study of Zea mays with 6 samples.

Results

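Gene expression in the center zone of the maize shoot apex was compared with that on the adaxial (upper) side of young leaf primordia, over 17802 of the 39656 genes in the deposited table. These are the genes whose mean was at least 2 RPM (counts scaled by the uniquely aligned reads of a library) in the center zone or on the adaxial side. The 6 libraries came from laser-microdissected cells of 14-day-old wild-type B73 seedlings, without any transgene: 2 libraries of the center zone, 2 of the adaxial side of primordia P2 and P3, and 2 of the abaxial (lower) side of the same primordia. B73 is an inbred line, and sections of 8 µm were pooled over apices for each library, so that a library is a mixture of plants of a single genotype. The labels name no separate growth batches, and p-values therefore measure the spread between these captures. In such bulk samples, fewer cells of a type and less RNA per cell cannot be told apart.

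The shoot apical meristem keeps a group of slowly dividing stem cells at its tip, the center zone, while cells displaced to its flanks are recruited into leaves. A leaf primordium is numbered by age, from the youngest outward, and its adaxial side faces the meristem while its abaxial side faces away. Class I KNOTTED1-like homeobox (KNOX) genes are known for keeping meristem cells undetermined, and YABBY genes are known as markers of cells that have entered a leaf. The gene sets that separate the tip from the adaxial side are described below by these roles, followed by the ways in which the contrast with the abaxial side gave other values.

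The captures were checked against marker genes. The summed level of 10 center zone markers was 1873.5 and 1598.3 RPM in the 2 center zone libraries, against 33.2 and 40.9 RPM in the adaxial ones and 17.5 and 11 RPM in the abaxial ones. 6 YABBY genes summed to 88.7 and 21.9 RPM in the center zone, against 557.0 and 564.3 RPM adaxially and 469.6 and 491.7 RPM abaxially. The 2 center zone libraries were thus not equally free of leaf markers, and most of the difference was in yabby15, with 78.8 and 16.3 RPM. The adaxial label rested on fewer genes. Of 4 genes known for adaxial identity, IG1 alone was called higher on the adaxial side than in the center zone. The genes rld1 and rld2 passed no test between these domains, and lbl1 was called higher in the center zone. Together the 4 summed to 1637.5 and 1961.0 RPM in the center zone, 1304.9 and 1075.5 RPM adaxially and 839.1 and 801.3 RPM abaxially. Between the leaf sides IG1 alone of them was called. Both adaxial libraries lay above both abaxial ones for rld1 and rld2 as well, while those of lbl1 overlapped. Of 4 abaxial markers, kan1, kan3 and mwp1, all KANADI genes, were at 4.4 RPM or less in each center zone and adaxial library and at 11.2 RPM or more in each abaxial one. The fourth, ARF11, had 39.9 and 60.0 RPM in the center zone, 19.2 and 18.0 RPM adaxially and 131.5 and 133.4 RPM abaxially, so that the 4 summed to 45.4 and 61.4 RPM in the center zone, against 22.8 and 19.9 RPM adaxially and 215.2 and 213.4 RPM abaxially.

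Markers of other tissues were low. 4 vascular markers summed to 58.6 and 31.0 RPM in the center zone and to 11.1 and 3.5 RPM on the adaxial side. In the center zone nearly all of this was BM1, a lignin gene, while sut1, dof2 and dof3 were at 2.6 RPM or less in every library. 8 genes of photosynthetic leaf tissue summed to 25.6 and 1.5 RPM in the center zone and to 13.3 and 2.5 RPM on the adaxial side, and pep1, which defines mature mesophyll, was at 0 in all 6 libraries. Replicate 1 of each of these domains was the higher one. Total counts ran from 14718269 to 25898155, with both abaxial libraries the smallest, and 3 counts, the limit that a count of 0 allows, correspond to 0.112 to 0.196 RPM. Such limits take in the error of counting alone, because reads of amplified RNA are not separate molecules. Among genes expressed in a domain, replicates lay within 2-fold of each other for 91.3% in the center zone, 96.0% on the adaxial side and 98.3% on the abaxial side.

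Of the 17802 members, 2156 (12.1%) were called as different, of which 1148 (6.45%) were higher and 1008 (5.66%) lower in the center zone than on the adaxial side. A call is an adjusted p under 0.01 in the quasi-likelihood test of edgeR, with p-values adjusted over all 17993 genes that reached a mean of 2 RPM in any of the 3 domains. Over all genes tested, 12% were called, 6.38% as higher and 5.61% as lower. These shares are the background for every count of a gene family below. Both center zone libraries lay above both adaxial ones for 42.0% of members and below both for 26.7%, so that most non-overlapping genes were not called. Called members had a median log2 fold change of 1.81 where higher and of -1.86 where lower, and 528 called genes changed by more than 3 on the log2 scale. Data were also simulated with the same library sizes, a spread common to all genes and 200 changed genes. There a log2 fold of 1 was found in 0.5% of cases, 2 in 55.5% and 3 in 99%. The real data had many more calls and a spread that differs by gene, so these shares do not carry over to them directly. Called folds went down to 0.85 and -0.84 on the log2 scale. Changes near 2-fold can still have been missed, and a family without calls is not shown to be even.

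The number of calls changed widely when a library was left out. Each such fit leaves 1 library in a domain and fewer libraries to estimate the spread from. A lost call therefore does not show that the left-out library carried it. Leaving out the adaxial replicate 2 left 212 calls over all genes tested, adaxial replicate 1 left 455, abaxial replicate 1 left 882 and abaxial replicate 2 left 987, against 2157 with all 6 libraries. Without center zone replicate 1 there were 3765 calls, and without center zone replicate 2 there were 1467. No called gene changed sign in any of these 6 fits, and 174 members, 87 in each direction, were called in all of them. They are described below as called in every fit. For the others, the libraries whose removal took the call away are named with the highest adjusted p over the 6 fits. Scaling by library size alone raised the median log2 fold of all genes by 0.16 and moved the share of calls that were higher to 66.2%, against 53.2% with TMM scaling. Called genes named below kept their direction under that scaling, and where a list gained calls of the other direction this is said beside it.

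**Figure D1:**
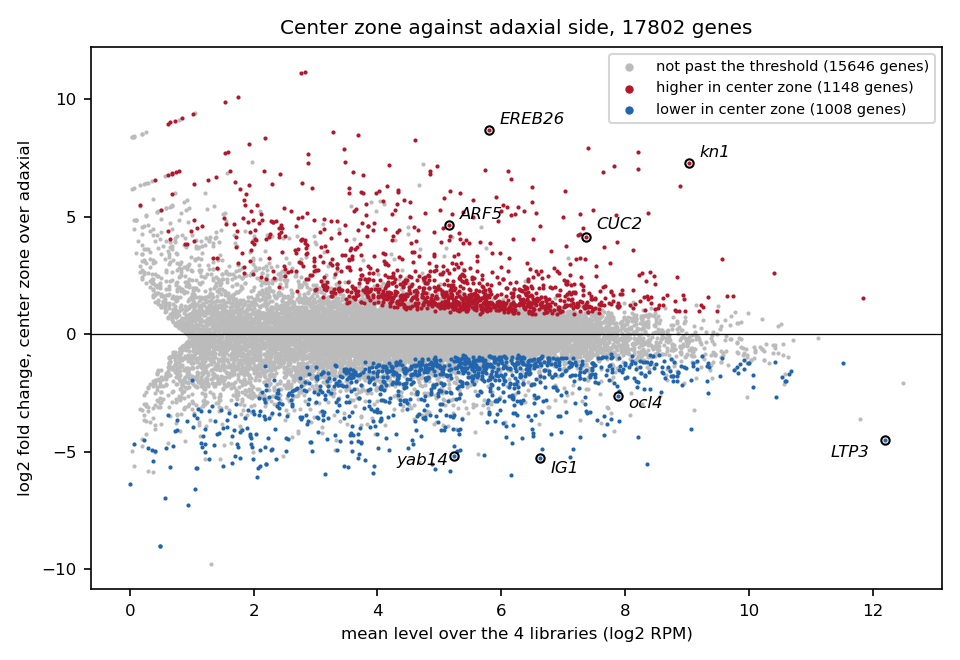
Log2 fold change of center zone over adaxial side (vertical axis) against the mean level in RPM (horizontal log axis) for the 17802 members, 1 point a gene. Red points are the 1148 called higher in the center zone, blue points the 1008 called lower, and grey points the remainder, which spread most widely at low levels.

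A filter on level bears on the largest folds. 15926 members reached 2 RPM in both domains, and 933 of these were called higher and 843 lower in the center zone. The 1056 genes that reached it in the center zone alone gave 215 further calls, and the 820 that reached it on the adaxial side alone gave 165. Genes of these last 2 classes passed the filter only through the domain where they are high, so they had to differ in that direction and their counts describe the filter as much as the tissue. A further 191 genes, which are not members, were tested through the abaxial side alone, and the same holds for their contrasts with that side.

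Of the lists used here, that of class I KNOX genes had the highest share of calls in favour of the center zone. Of the 8 genes listed, 7 were expressed, and 6 of these were higher in the center zone than on the adaxial side, none lower, with a median log2 fold of 4.38. The background for calls in this direction was 6.38%. Against the abaxial side all 7 were called higher, with a median log2 fold of 6.14. The eighth, knox3, did not exceed 0.2 RPM in any library. Leaving out 1 library gave 4 to 6 calls against the adaxial side and 2 to 6 against the abaxial side, with the 2 found without abaxial replicate 1 and without abaxial replicate 2. Markers of the center zone were taken in part from this family, so its direction was known beforehand. Among the called genes, lg4b, knox4 and knox8 reached a mean of 2 RPM in the center zone and not on the adaxial side. The filter fixed their direction, so the share of calls is no test against the background.

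The founding member kn1 (GRMZM2G017087, chromosome 1, 271340805-271348525 in the B73 RefGen_V3 assembly) had 1109.9 and 971.1 RPM in the center zone libraries, against 9.9 and 2.4 RPM in the adaxial ones and 2.7 and 1.2 RPM in the abaxial ones. The center zone libraries were far above all 4 leaf libraries, while the adaxial libraries differed about as much from each other as from the abaxial ones. The log2 fold was 7.28 ± 0.81 (SE) against the adaxial side (adjusted p = 0.00433) and 8.97 ± 0.89 against the abaxial side. Its large fold was nevertheless called in only 2 of the 6 fits that leave out a library, since removing either center zone or either abaxial library raised the adjusted p, to at most 0.0312. By contrast, lg4b (GRMZM5G832409, chromosome 6, 24181660-24193140) had 27.7 and 21.4 RPM in the center zone, against 0.6 and 0.5 RPM adaxially and 0.2 and 0.4 RPM abaxially. Its replicates lay close together in each domain, and its fold of 5.32 ± 0.42 was called in every fit.

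The remaining class I genes differed in how much RNA was found in the leaf. For lg3, known from dominant mutants that disturb the blade and sheath boundary, levels were 86.5 and 66.7 RPM in the center zone, 2.5 and 4.3 RPM adaxially and 11.2 and 7.6 RPM abaxially. It was the class I gene with more RNA abaxially than adaxially in all 4 leaf libraries, and its log2 fold was 4.31 ± 0.37 against the adaxial side (called in every fit) and 2.91 ± 0.35 against the abaxial side. That difference between the sides did not pass the test (adjusted p = 0.329). knox4, knox8 and lg4 were called with log2 folds of 5.28, 4.38 and 4.02 against the adaxial side. Leaving out a library took the call of knox4 away without center zone replicate 2 or either abaxial library (adjusted p up to 0.0215), and those of knox8 and lg4 without either adaxial library (up to 0.0283 and 0.027).

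Class II KNOX genes, which are known to be expressed in differentiating organs, were not called on either side. knox6 had 33.0 and 33.3 RPM in the center zone, against 17.3 and 15.3 RPM adaxially and 16.8 and 18.5 RPM abaxially. knox7 had 39.6 and 43.9 RPM in the center zone, 31.6 and 28.4 RPM adaxially and 33.0 and 35.2 RPM abaxially. Both pointed the same way as the class I genes without passing the test, with log2 folds of 0.87 ± 0.19 (adjusted p = 0.0149) and 0.32 ± 0.18 (adjusted p = 0.209) against the adaxial side.

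Other transcription factor genes gave folds as large as those of the KNOX genes. EREB26 (GRMZM2G317160, chromosome 1, 51016688-51022814), of the AP2/ERF class, had 135.4 and 86.7 RPM in the center zone, against 0.3 and 0.1 RPM adaxially and 0.1 and 0.1 RPM abaxially. Its adaxial level was at or near the limit of 3 counts, and its log2 fold of 8.69 ± 0.41 (adjusted p = 0.000202) was called in every fit. MYBR90 (chromosome 5, 31901583-31906914), a MYB-related gene, had 43.2 and 81.1 RPM in the center zone, 0.3 and 0.5 RPM adaxially and 0 and 0.2 RPM abaxially. The groups did not overlap, and the log2 fold was 7.15 ± 0.65 (adjusted p = 0.00136, up to 0.0192 without either adaxial library). NF-YA13 (chromosome 5, 211666408-211671351), which encodes a subunit of the CCAAT-binding NF-Y complex, had 38.3 and 46.4 RPM in the center zone, 0.8 and 0.6 RPM adaxially and 0.5 and 1.5 RPM abaxially. Its log2 fold of 5.71 ± 0.50 (adjusted p = 0.000854) lost the call without either adaxial library, at up to 0.0167.

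CUC2, named after the Arabidopsis NAC genes that mark organ boundaries, had 353.9 and 277.1 RPM in the center zone, against 11.5 and 20.1 RPM adaxially and 1.4 and 0.8 RPM abaxially. The 3 domains formed 3 separate levels, with folds of 4.14 ± 0.39 against the adaxial and 8.02 ± 0.48 against the abaxial side, both called in every fit. Of the other expressed NAC genes only NAC120 was called, with 147.8 and 147.2 RPM in the center zone, 71.7 and 52.9 RPM adaxially and 63.8 and 69.2 RPM abaxially. That log2 fold of 1.09 ± 0.18 was among the smallest called, and it was lost in each fit but that without center zone replicate 1 (adjusted p up to 0.0346). In the NAC list as a whole, 2 of 11 expressed genes were called higher and none lower.

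Among 5 expressed WUSCHEL-related homeobox (WOX) genes, wox9B was called, with 58.1 and 104.1 RPM in the center zone, against 1.0 and 2.8 RPM adaxially and 0 and 0.1 RPM abaxially. The log2 fold was 5.23 ± 0.66 (adjusted p = 0.00486, up to 0.0145 without either adaxial or either abaxial library). wox9C, with 28.3 and 18.4 RPM in the center zone, 0.1 and 0.8 RPM adaxially and 0 and 0 RPM abaxially, missed the adaxial call (adjusted p = 0.0119) and passed the abaxial one (adjusted p = 0.0072). The leaf margin genes ns1 and wox3A pointed the other way without a call. ns1 had 0.1 and 0 RPM in the center zone and 1.0 and 3.1 RPM on the adaxial side (adjusted p = 0.0169).

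Genes of cytokinin signalling followed. Of 19 expressed genes on this list 3 were higher and none lower in the center zone than on the adaxial side, and all 3 are response regulators, which are known to be induced by cytokinin or to carry its phosphorelay signal. abph1 (chromosome 2, 27478703-27483682), whose mutants have altered leaf arrangement, had 89.2 and 63.9 RPM in the center zone, against 3.4 and 4.7 RPM adaxially and 0.5 and 0.4 RPM abaxially. It was called in every fit with a log2 fold of 4.06 ± 0.30. crr2 had 30.5 and 33.9 RPM in the center zone, 4.5 and 2.9 RPM adaxially and 3.6 and 2.1 RPM abaxially, a log2 fold of 2.96 ± 0.35 (adjusted p = 0.00179). RR4 had 89.0 and 59.4 RPM in the center zone, 8.6 and 11.4 RPM adaxially and 10.7 and 11.2 RPM abaxially, a log2 fold of 2.72 ± 0.28 (adjusted p = 0.00119). For these last genes the 4 leaf libraries overlapped, and both calls were lost without either adaxial library (adjusted p up to 0.0193 and 0.0107). For the list, the fits that leave out a library gave 1 to 4 genes higher, with 1 without adaxial replicate 2, and 1 gene lower without center zone replicate 1. The phosphotransfer gene HP3 had 129.3 and 150.7 RPM in the center zone, 30.7 and 21.5 RPM adaxially and 111.1 and 40.4 RPM abaxially, and passed neither test.

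Meristem size genes of the CLAVATA and fasciated ear class were called in 1 direction, with 3 of 5 expressed genes higher in the center zone. Leaving out any 1 library reduced this count to 2, or to 1 without adaxial replicate 1. fea3 (chromosome 3, 29094519-29097953), a leucine-rich repeat receptor gene that restricts meristem size, had 114.7 and 97.7 RPM in the center zone, against 8.3 and 8.9 RPM adaxially and 14.8 and 13.4 RPM abaxially. Its log2 fold of 3.46 ± 0.21 (adjusted p = 0.000263) was called in every fit, and the abaxial libraries lay between the other domains. FEA4, a bZIP gene, had 76.2 and 67.3 RPM in the center zone, 7.1 and 13.9 RPM adaxially and 17.1 and 11.9 RPM abaxially, and its fold of 2.59 ± 0.38 was lost without adaxial replicate 1 alone (adjusted p = 0.0133). fea2, the CLAVATA2 counterpart, had 37.0 and 33.2 RPM in the center zone, against 16.5 and 13.3 RPM adaxially and 15.9 and 18.0 RPM abaxially. This was a fold of 1.08 ± 0.20 that lost its call whichever library was left out (adjusted p up to 0.0458). The receptor kinase gene td1 and the G protein gene ct2 were not called, with log2 folds of 0.81 ± 0.21 and 0.02 ± 0.22.

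**Figure D2:**
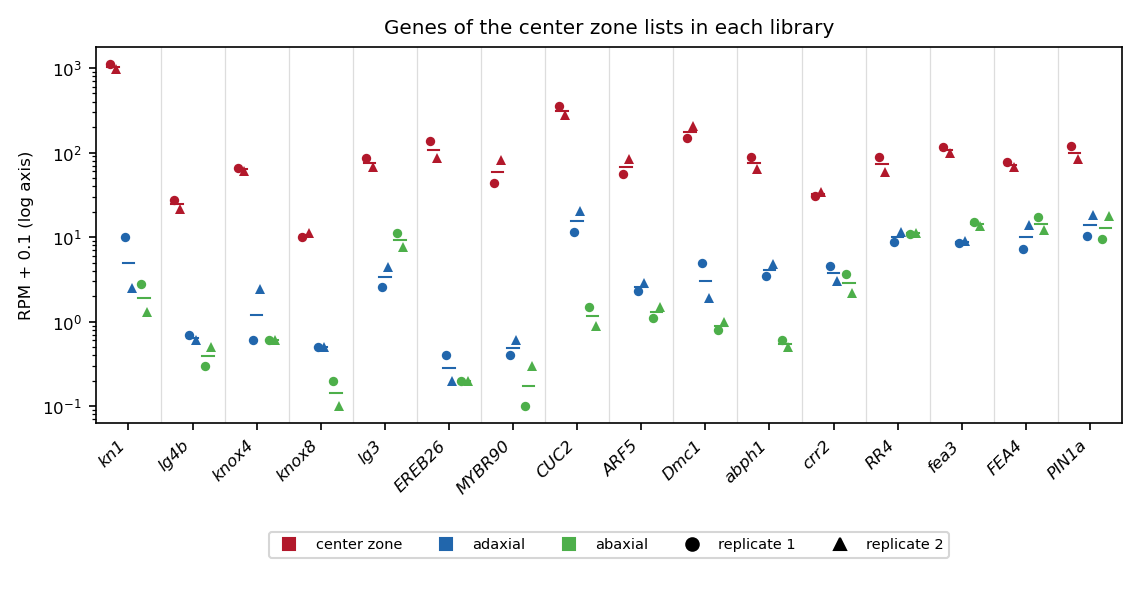
Levels of genes higher in the center zone, as RPM + 0.1 on a log axis, for the center zone, adaxial and abaxial libraries from left to right within each gene. Circles are replicate 1, triangles replicate 2, and short bars the geometric mean of both. The center zone points lie above all leaf points for each gene shown. abph1 and CUC2 are among several genes with both adaxial points above both abaxial ones.

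Auxin genes were divided. Of 20 expressed auxin response factor (ARF) and Aux/IAA genes, 5 were higher in the center zone than on the adaxial side and 1 was lower, and the auxin exporter genes were split with 1 in each direction. The count of 5 ran between 1, without either adaxial library, and 7, without center zone replicate 1. ARF5 (chromosome 2, 25424201-25429000) had 55.0 and 83.1 RPM in the center zone, against 2.2 and 2.8 RPM adaxially and 1.0 and 1.4 RPM abaxially, and was called in every fit (log2 fold 4.64 ± 0.33). ARF28 had 501.9 and 499.0 RPM in the center zone, 161.1 and 154.8 RPM adaxially and 196.0 and 168.7 RPM abaxially, a smaller log2 fold of 1.5 ± 0.18 with very close replicates. In the opposite direction, ARF10 had 156.2 and 97.8 RPM in the center zone, 482.1 and 446.1 RPM adaxially and 408.8 and 363.0 RPM abaxially, a log2 fold of -2.03 ± 0.24. The calls of ARF28 and ARF10 were lost without either adaxial library (adjusted p up to 0.0165 and 0.0164).

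The Aux/IAA gene BIF4, known from barren inflorescence mutants, had 33.0 and 37.4 RPM in the center zone, 6.7 and 8.3 RPM adaxially and 0.9 and 1.1 RPM abaxially, which placed the adaxial side between the other domains. Its fold was 2.06 ± 0.27 against the adaxial side (adjusted p up to 0.0157 without either adaxial library) and 5.0 ± 0.32 against the abaxial side, where it was called in every fit. PIN1a, an exporter, had 118.9 and 83.0 RPM in the center zone, 10.3 and 18.3 RPM adaxially and 9.3 and 17.5 RPM abaxially, and PIN1d had 61.5 and 46.6 RPM in the center zone, 156.3 and 187.3 RPM adaxially and 189.4 and 178.7 RPM abaxially. The paralogs thus lay on opposite sides of the contrast, with log2 folds of 2.63 ± 0.44 and -1.84 ± 0.22. The call of PIN1a was lost without center zone replicate 2 or either adaxial library, and that of PIN1d without adaxial replicate 2 (adjusted p up to 0.0305 and 0.0143).

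Genes outside these pathways were among the largest changes. Of all named genes, a pair without a symbol had the largest folds. GRMZM2G422045 had 10.9 and 17.6 RPM in the center zone, 0 and 0 RPM adaxially and 0 and 0.1 RPM abaxially, and GRMZM2G021909 had 14.1 and 13.2 RPM in the center zone, 0 and 0 RPM adaxially and 0 and 0 RPM abaxially. Neither had a read in the adaxial libraries, and against the limit of 3 counts in each of these they were at least 117-fold and 112-fold higher. Both were called in all fits except that without adaxial replicate 2 (adjusted p up to 0.012 and 0.0112). In the opposite direction, GRMZM2G403313 and GRMZM2G096029 had no read in the center zone and 2.3 and 3.3 RPM and 1.8 and 3.8 RPM on the adaxial side, at least 21.4-fold lower in the center zone for each, and both lost their calls when any 1 adaxial or abaxial library was left out (adjusted p up to 0.0357 and 0.044).

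Dmc1 (GRMZM2G109618, chromosome 3, 229673847-229678762), the recombinase gene known for its role in meiosis, had 149.1 and 207.2 RPM in the center zone, against 4.8 and 1.8 RPM adaxially and 0.7 and 0.9 RPM abaxially. Its log2 fold of 5.63 ± 0.49 (adjusted p = 0.00117) was called in every fit. A pair of type 2C protein phosphatase genes, PP2C15 and PP2C16, was close to the detection limit in the leaf. PP2C15 had 14.1 and 16.1 RPM in the center zone and 0.2 and 0.2 RPM on the adaxial side, and PP2C16 had 11.6 and 7.9 RPM in the center zone and 0.1 and 0.1 RPM on the adaxial side. Both lost their calls without either adaxial library (adjusted p up to 0.0135 and 0.0196). The glutathione S-transferase gene gst19 had 9.5 and 4.0 RPM in the center zone and no read in any of the 4 leaf libraries. Against the limit of 3 counts in each adaxial library it was at least 55.3-fold higher, and it too lost its call without either adaxial library (adjusted p up to 0.0287).

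Further genes high in the center zone had roles in receptors, flowering and lignin. DLF1, a bZIP gene known for its role in the floral transition, had 422.2 and 377.4 RPM in the center zone, 85.1 and 105.1 RPM adaxially and 135.9 and 148.2 RPM abaxially, and its fold of 1.90 ± 0.21 was called in every fit. The receptor kinase gene ERECTA had 941.1 and 814.8 RPM in the center zone, 339.8 and 366.5 RPM adaxially and 470.0 and 356.1 RPM abaxially, a fold of 1.15 ± 0.22 that lost its call whichever library was left out (adjusted p up to 0.0418). Of 8 expressed lignin genes 2 were called, both cinnamyl alcohol dehydrogenase genes and both higher, whereas without center zone replicate 1 there were 2 higher and 3 lower. BM1 had 55.4 and 30.7 RPM in the center zone, 6.9 and 2.3 RPM adaxially and 0.3 and 0.4 RPM abaxially, and cad1 had 12.1 and 12.7 RPM in the center zone, 1.5 and 1.4 RPM adaxially and 2.6 and 2.1 RPM abaxially. Their log2 folds were 3.09 ± 0.53 (lost without adaxial replicate 2 or either abaxial library, adjusted p up to 0.0245) and 2.92 ± 0.37 (lost without either adaxial library, up to 0.0218). BM1 was also the main vascular marker, and the part of vascular cells in its level was not tested.

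Among called genes with a symbol, those with the most reads on this side were kn1, lbl1, ERECTA, eno1 and tif5A. lbl1, needed for trans-acting small RNAs, had 957.4 and 1051.5 RPM in the center zone, 352.3 and 245.7 RPM adaxially and 342.8 and 326.9 RPM abaxially, a log2 fold of 1.60 ± 0.21 that was lost without either adaxial library (adjusted p up to 0.0182). eno1, which encodes the glycolytic enzyme enolase, had 1000.3 and 976.8 RPM in the center zone, 478.8 and 420.4 RPM adaxially and 468.6 and 483.7 RPM abaxially, and the translation factor gene tif5A had 712.6 and 672.8 RPM in the center zone, 331.0 and 292.6 RPM adaxially and 334.1 and 300.6 RPM abaxially. Both rose by close to 1 on the log2 scale (0.98 ± 0.17 and 0.99 ± 0.17), near the smallest change called, and both calls held only without center zone replicate 1 (adjusted p up to 0.0352 and 0.0365 in the other fits).

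Genes lower in the center zone than on the adaxial side began with the YABBY family. All 9 were expressed, 5 were lower in the center zone and none higher, with a median log2 fold of -3.43, beside a background of 5.61% for calls in this direction. Against the abaxial side 5 were also lower. The leaf primordium markers were taken from this family, so its direction was known beforehand. The called genes yab9, yab10, YAB11 and DL1 reached a mean of 2 RPM on the adaxial side and not in the center zone. The filter fixed their direction, so the share of calls is no test against the background. When any 1 adaxial or abaxial library was left out the adaxial count was 3, and over the 6 fits the abaxial count ran between 3, without abaxial replicate 1, and 7. yab9 (chromosome 5, 23572912-23577090) had 0.9 and 1.9 RPM in the center zone, against 59.6 and 82.0 RPM adaxially and 20.2 and 19.5 RPM abaxially. yab14 (chromosome 10, 133109200-133111834) had 1.9 and 2.6 RPM in the center zone, 70.1 and 76.9 RPM adaxially and 111.8 and 104.1 RPM abaxially. These genes had opposite orders in the leaf, since yab9 was higher adaxially and yab14 higher abaxially in all libraries, although neither difference passed the test (adjusted p = 0.141 and 0.929). yab10 had 1.3 and 1.1 RPM in the center zone, 19.9 and 29.1 RPM adaxially and 40.2 and 41.0 RPM abaxially. The log2 folds of yab9, yab14 and yab10 against the adaxial side were -5.81 ± 0.42, -5.19 ± 0.26 and -4.53 ± 0.32, all called in every fit.

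yabby15, which had the highest level of the 6 YABBY markers, had 78.8 and 16.3 RPM in the center zone, 374.3 and 373.2 RPM adaxially and 293.9 and 319.8 RPM abaxially. Its groups did not overlap, but the center zone replicates differed so much that neither contrast was called (log2 fold -3.15 ± 0.74, adjusted p = 0.0331 against the adaxial side). YAB11 and YAB5 were high on the abaxial side only. YAB11 had 1.0 and 0.8 RPM in the center zone, 4.1 and 2.1 RPM adaxially and 48.1 and 36.9 RPM abaxially, and its adaxial call (log2 fold -1.93 ± 0.36) was lost whichever library was left out (adjusted p up to 0.0301). YAB5 had 1.6 and 0.8 RPM in the center zone, 7.5 and 1.3 RPM adaxially and 49.7 and 50.5 RPM abaxially and was called on neither side. DL1, a counterpart of the rice midrib gene DROOPING LEAF, was at 0.1 and 0.1 RPM in the center zone, 2.6 and 2.5 RPM adaxially and 3.1 and 2.9 RPM abaxially, with a fold of -4.96 ± 0.68 lost when any 1 adaxial or abaxial library was left out (adjusted p up to 0.019).

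All 7 HD-ZIP IV genes of the outer cell layer (OCL) group were lower in the center zone than on the adaxial side, and all 7 were lower than on the abaxial side. Their median log2 folds were -2.81 and -3.13. The list was set with values in view, and ocl1, ocl4 and ocl5 of it also served as epidermal markers. These homeodomain genes are known for expression in the epidermis, and 5 of the 7 were called in every fit. ocl3 (chromosome 7, 141676033-141682220) had 11.7 and 7.3 RPM in the center zone, against 114.2 and 104.8 RPM adaxially and 89.9 and 68.5 RPM abaxially. ocl5 (chromosome 4, 28979897-28986080) had 43.6 and 29.8 RPM in the center zone, 421.8 and 377.0 RPM adaxially and 502.2 and 406.4 RPM abaxially. The leaf libraries of both sides overlapped for ocl5, and the log2 folds were -3.68 ± 0.28 and -3.61 ± 0.25.

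The other epidermal genes followed with smaller folds. OCL6 had 42.7 and 38.2 RPM in the center zone, 278.1 and 293.1 RPM adaxially and 387.3 and 359.8 RPM abaxially (log2 fold -2.98 ± 0.19). OCL14 had 23.9 and 20.8 RPM in the center zone, 153.8 and 127.9 RPM adaxially and 210.2 and 152.9 RPM abaxially (log2 fold -2.81 ± 0.22). The least changed, ocl1, still had 177.2 and 192.6 RPM in the center zone, against 357.9 and 416.3 RPM adaxially and 551.3 and 490.9 RPM abaxially, so its RNA was well above the detection limit in the tip libraries. Its log2 fold of -1.23 ± 0.20 was lost when any 1 adaxial or abaxial library was left out (adjusted p up to 0.0299), that of OCL8 (-1.71 ± 0.19) without adaxial replicate 2 (0.0117), and that of ocl4 (-2.63 ± 0.22) was called in every fit.

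Genes of the cuticle moved with the epidermal ones. Of 6 expressed lipid transfer and cuticle genes, 3 were lower in the center zone than on the adaxial side and none higher, and the same count held against the abaxial side. LTP3 (GRMZM2G126397, chromosome 3, 184434264-184435351), which encodes a lipid transfer protein, had 589.2 and 293.7 RPM in the center zone, against 8100.8 and 9871.1 RPM adaxially and 6208.3 and 5842.1 RPM abaxially. It had the most reads of all called genes with a symbol that were lower in the center zone, and its fold of -4.52 ± 0.39 was called in every fit. CER1, whose Arabidopsis counterpart makes wax alkanes, had 22.2 and 21.0 RPM in the center zone, 110.9 and 136.9 RPM adaxially and 136.2 and 98.9 RPM abaxially (log2 fold -2.69 ± 0.25, called in every fit). plt1, a further lipid transfer gene, had 2.4 and 1.1 RPM in the center zone, 13.0 and 18.6 RPM adaxially and 29.1 and 21.5 RPM abaxially (log2 fold -3.31 ± 0.43, adjusted p up to 0.0201 without either adaxial library). The 3 epidermal markers ocl1, ocl4 and ocl5 together summed to 302.7 and 284.5 RPM in the center zone, against 1232.4 and 1140.3 RPM adaxially and 1544.1 and 1308.7 RPM abaxially. The part of the share of epidermal cells in the cuticle values was not tested.

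GROWTH-REGULATING FACTOR (GRF) genes and their coactivator gene GIF1, known to promote cell proliferation in young leaves, were called in favour of the leaf. Of 17 expressed genes on this list 10 were lower in the center zone than on the adaxial side, none was higher, and the median log2 fold was -1.51. Against the abaxial side 8 were lower. GRF11 (chromosome 9, 9812369-9814204) had 14.6 and 9.3 RPM in the center zone, against 75.0 and 144.7 RPM adaxially and 41.5 and 46.6 RPM abaxially. GRF3 (chromosome 4, 177122616-177124549) had 18.0 and 17.1 RPM in the center zone, 114.2 and 99.3 RPM adaxially and 134.3 and 85.8 RPM abaxially. GRF11 and GRF3 were called in every fit, with log2 folds of -3.38 ± 0.41 and -2.76 ± 0.25.

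GIF1 had 225.0 and 158.8 RPM in the center zone, 688.7 and 680.6 RPM adaxially and 1428.4 and 988.3 RPM abaxially, and so was highest on the abaxial side, with folds of -2.0 ± 0.26 against the adaxial and -2.77 ± 0.27 against the abaxial side. The adaxial call of GIF1 was lost without either adaxial library (adjusted p up to 0.0201). For the list as a whole the count of calls against the adaxial side ran between 2, without adaxial replicate 2, and 11 over the 6 fits that leave out a library, and that against the abaxial side between 2, without either abaxial library, and 9. The other called genes were GRF5, GRF13, GRF12, GRF8, GRF1, GRF14 and GRF2, with log2 folds between -2.30 and -1.22. GRF7 had its highest levels abaxially, at 64.4 and 36.2 RPM, with 6.8 and 2.7 RPM in the center zone and 21.0 and 16.1 RPM on the adaxial side, and was called against the abaxial side alone, a call lost when any 1 adaxial or abaxial library was left out (adjusted p up to 0.0243).

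**Figure D3:**
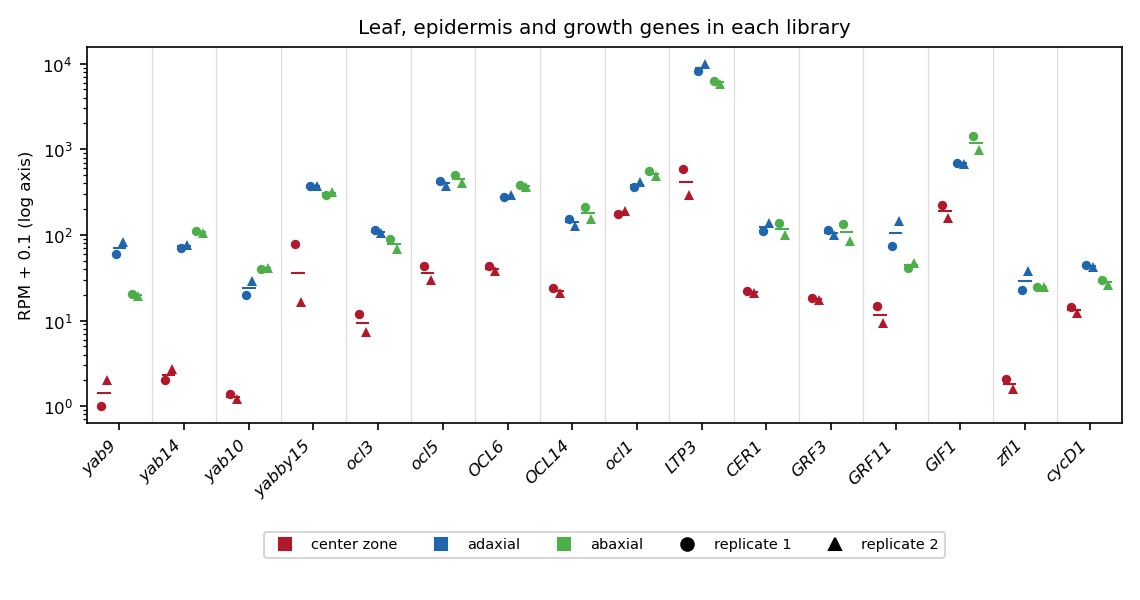
Levels of genes lower in the center zone, as RPM + 0.1 on a log axis, for the center zone, adaxial and abaxial libraries from left to right within each gene. Circles are replicate 1, triangles replicate 2, and short bars the geometric mean of both; the center zone points lie below all adaxial points, from LTP3 with 589.2 and 293.7 RPM in the center zone down to the YABBY genes.

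Genes of cell division and growth were lower in the center zone by small amounts. Of 14 expressed cell cycle genes 4 were lower than on the adaxial side and none higher, and the same count held against the abaxial side. cycD1, a D-type cyclin gene, had 14.2 and 12.3 RPM in the center zone, against 45 and 41.6 RPM adaxially and 30.0 and 26.0 RPM abaxially (log2 fold -1.87 ± 0.20). PCNA, the sliding clamp of DNA replication, had 94.6 and 100.4 RPM in the center zone, 247.4 and 183.8 RPM adaxially and 211.6 and 214.2 RPM abaxially (log2 fold -1.30 ± 0.18). The cyclin gene cyc1 and the replication helicase gene MCM7 had log2 folds of -1.73 and -1.34. Without adaxial replicate 2 none of the 14 was called. cycD1 was lost in that fit alone (adjusted p = 0.0117), the other 3 genes were also lost without either abaxial library, and PCNA and MCM7 without adaxial replicate 1 (adjusted p up to 0.0165, 0.016 and 0.03).

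Of 9 expressed histone genes 2 were lower in the center zone and none higher, an H4 gene at chromosome 4, 156480592-156482133 with 351.9 and 223.8 RPM in the center zone, 888.8 and 1110.5 RPM adaxially and 1044.5 and 1011.7 RPM abaxially, and an H1 gene with 96.3 and 59.5 RPM in the center zone, 178.0 and 276.5 RPM adaxially and 209.1 and 199.2 RPM abaxially. Histone genes have near-identical copies, and reads that map to several of them were not counted, so the split between copies is uncertain. The high mobility group genes HMG I/Y-2, nfd101 and MNB1B are given because they were among the called lower genes with the most reads. HMG I/Y-2 had 575.4 and 249.5 RPM in the center zone, 2059.9 and 2642.2 RPM adaxially and 2871.3 and 3510.0 RPM abaxially, with center zone replicates that differed widely. nfd101 had 918.2 and 732.5 RPM in the center zone, 2075.6 and 2696.1 RPM adaxially and 2056.3 and 2169.9 RPM abaxially. Their log2 folds were -2.69 ± 0.41 and -1.70 ± 0.24, and that of MNB1B was -1.23 ± 0.21. Each of these 5 calls was lost without adaxial replicate 2 (adjusted p up to 0.0205 for H4, 0.0404 for H1, 0.0397 for HMG I/Y-2, 0.0175 for nfd101 and 0.0319 for MNB1B), and all but that of nfd101 also without adaxial replicate 1. H1, HMG I/Y-2 and MNB1B lost their calls without either abaxial library as well, nfd101 without abaxial replicate 1, and H1 and MNB1B without center zone replicate 2.

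Ribosomal protein genes were divided 8 lower to 1 higher among 31 expressed, with a median log2 fold of -0.62 against the adaxial side and 5 lower to 1 higher against the abaxial side. rpl35 had 226.1 and 173.2 RPM in the center zone, 611.9 and 813.8 RPM adaxially and 590.7 and 638.2 RPM abaxially (log2 fold -2.01 ± 0.24), and rps6 had 415.2 and 367.7 RPM in the center zone, 863.2 and 979.5 RPM adaxially and 816.3 and 785.9 RPM abaxially (log2 fold -1.40 ± 0.19). The exception, rps10, had 30.5 and 47.6 RPM in the center zone, 8.3 and 7.8 RPM adaxially and 8.0 and 7.9 RPM abaxially (log2 fold 2.12 ± 0.28). No ribosomal protein gene was called without adaxial replicate 2, where rpl35, rps6 and rps10 had adjusted p of 0.0127, 0.0182 and 0.0254. rps6 was also lost without either abaxial library and rps10 without adaxial replicate 1. Ribosomal protein genes too have close copies, whose reads can be divided or dropped by unique mapping.

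MADS-box and floral genes were called in both directions, 3 of 20 expressed genes being lower in the center zone and 2 higher. zap1, a MADS-box gene, was higher, with 4.9 and 1.5 RPM in the center zone, 0 and 0 RPM adaxially and 0 and 0.1 RPM abaxially, a log2 fold of 6.83 ± 1.33 that was called without center zone replicate 2 and in none of the other fits that leave out a library (adjusted p up to 0.0619). MADS76 was lower, with 0.6 and 0.5 RPM in the center zone, 6.0 and 23.5 RPM adaxially and 4.1 and 9.0 RPM abaxially, a log2 fold of -4.98 ± 0.86 called without adaxial replicate 1 and in none of the others (adjusted p up to 0.0603). zfl1, a maize counterpart of LEAFY, had 2.0 and 1.5 RPM in the center zone, against 22.4 and 37.6 RPM adaxially and 24.3 and 24.7 RPM abaxially, a log2 fold of -4.27 ± 0.36 called in every fit. zmm16, a MADS-box gene of the PISTILLATA class, had 8.9 and 4.5 RPM in the center zone, 67.9 and 63.5 RPM adaxially and 45.4 and 46.3 RPM abaxially, a fold of -3.46 ± 0.31 lost without adaxial replicate 2 (adjusted p = 0.0112). tga1, the SBP gene known for teosinte glume architecture, had 0.4 and 0.2 RPM in the center zone, 7.0 and 12.9 RPM adaxially and 2.9 and 3.9 RPM abaxially, a fold of -5.33 ± 0.62 lost without adaxial replicate 2 (adjusted p = 0.0167). tga1 was 1 of 2 called among 18 expressed SBP genes, and both were lower in the center zone. This was 11.1% of the list, near the 12% of all genes tested. The SBP count ran between 0, without adaxial replicate 2, and 4 over the fits that leave out a library.

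Further large changes were found in single genes, some of them from families of mixed direction. Of expressed bZIP and bHLH genes 13% were called, near the 12% of all genes tested. Among 46 expressed bZIP and bHLH genes 3 were higher and 3 lower, against 3 and 13 without center zone replicate 1 and 1 and 2 without either adaxial library. bHLH173 (chromosome 1, 195720311-195722763) had 15.2 and 10.1 RPM in the center zone, 215.2 and 208.4 RPM adaxially and 251.4 and 276.0 RPM abaxially. bHLH165 had 2.7 and 1.7 RPM in the center zone, 45.6 and 44.3 RPM adaxially and 32.7 and 31.5 RPM abaxially. Their log2 folds of -4.23 ± 0.24 and -4.51 ± 0.26 were called in every fit, and bHLH23 was lower by a similar amount (-4.62 ± 0.57), lost when any 1 adaxial or abaxial library was left out (adjusted p up to 0.0292).

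MYB and WRKY genes were split 5 higher to 5 lower among 46, from MYBR90 above to MYBR113 (-5.75 ± 0.67). Without center zone replicate 1 there were 6 higher and 12 lower, and without adaxial replicate 2 there was 1 in each direction. MYBR113 was lost without center zone replicate 2 or either abaxial library (adjusted p up to 0.0145). AP2 and EREB genes were split 3 to 3 among 22, and TCP genes 1 to 1 among 6. For AP2 and EREB genes these counts ran between 1 and 3 higher and between 0 and 4 lower over the fits that leave out a library. EREB85 had 30.5 and 56.6 RPM in the center zone, 3.9 and 3.1 RPM adaxially and 2.8 and 2.1 RPM abaxially (log2 fold 3.48 ± 0.38), and Myb30 had 34.6 and 22.1 RPM in the center zone, 2.2 and 2.8 RPM adaxially and 4.6 and 2.8 RPM abaxially (log2 fold 3.32 ± 0.39). Both lost their calls without either adaxial library (adjusted p up to 0.0217 and 0.0167). OFP32, of the OVATE family, had 1.0 and 0.5 RPM in the center zone, 20.6 and 33.3 RPM adaxially and 7.5 and 8.0 RPM abaxially, and its log2 fold of -5.35 ± 0.44 was called in every fit. Its adaxial libraries lay above the abaxial ones.

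Of 14 expressed homeobox genes of other classes 3 were higher in the center zone and none lower, although without center zone replicate 1 there were 3 higher and 2 lower, and without either adaxial library none in either direction. HB21 had 15.3 and 11.5 RPM in the center zone, 0.9 and 1.3 RPM adaxially and 2.1 and 1.4 RPM abaxially, and HB131 had 143.4 and 112.0 RPM in the center zone, 50.0 and 49.4 RPM adaxially and 54.0 and 58.7 RPM abaxially. Their log2 folds were 3.45 ± 0.45 and 1.20 ± 0.18, lost without either adaxial library and, for HB131, either abaxial one (adjusted p up to 0.0172 and 0.0267). Of 20 expressed tubulin and actin genes 1 was higher and 1 lower, or 10% called beside 12% of all genes tested. TUBB2 was higher in the center zone at 74.2 and 80.7 RPM, against 17.8 and 20.1 RPM adaxially and 19.0 and 14.4 RPM abaxially. The gene tub6 was lower at 150.8 and 117.4 RPM, against 251.2 and 342.4 RPM adaxially and 210.5 and 196.8 RPM abaxially. Their log2 folds of 1.87 ± 0.23 and -1.32 ± 0.24 were lost without either adaxial library (adjusted p up to 0.0159 and 0.0366), that of tub6 also without center zone replicate 2 or either abaxial library. Tubulin genes have close copies as well.

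On the heat shock and chaperone list, which does not hold hsp70-4, 1 of 15 expressed genes was higher and 2 were lower in the center zone. Hsp70 (the gene at chromosome 8, 168955391-168958754) had 37.4 and 34.0 RPM in the center zone, 2.2 and 1.7 RPM adaxially and 0.6 and 1.6 RPM abaxially, a log2 fold of 4.02 ± 0.41. HSP18 had 0.3 and 0.3 RPM in the center zone, 8.1 and 6.9 RPM adaxially and 1.7 and 1.0 RPM abaxially, a log2 fold of -4.69 ± 0.56, and HSF2, a heat shock factor gene, had a log2 fold of -1.93. hsp70-4, which was among the called lower genes with the most reads, had 1048.2 and 763.6 RPM in the center zone, 2068.5 and 2669.1 RPM adaxially and 2126.5 and 2141.6 RPM abaxially (log2 fold -1.56 ± 0.25), and its call held only without center zone replicate 1 (adjusted p up to 0.0272 in the other fits). Hsp70 and HSP18 lost their calls without either adaxial library (adjusted p up to 0.0179 and 0.0167), and HSF2 without adaxial replicate 2, center zone replicate 2 or either abaxial library (up to 0.0213).

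Genes of cellulose synthesis and of cellulases, grouped by an annotation of plant pathways that was read in part, were lower in the center zone where they were called. Of 37 expressed genes of cellulose synthesis 6 were lower than on the adaxial side and none higher, and 3 were lower than on the abaxial side. CesA-8 had 27.5 and 17.0 RPM in the center zone, 47.9 and 51.0 RPM adaxially and 47.0 and 47.0 RPM abaxially, and CslF6-1, of mixed-linkage glucan synthesis, had 3.8 and 1.5 RPM in the center zone, 11.4 and 16.2 RPM adaxially and 12.8 and 12.1 RPM abaxially. Of 15 cellulase and glucanase genes 3 were lower and none higher. With scaling by library size alone, cellulose synthesis had 4 lower and 1 higher, and cellulases 3 lower and 1 higher. The count for cellulose synthesis changed widely over the 6 fits that leave out a library, so these calls were not stable. CesA-8 lost its call in each of these fits but that without center zone replicate 1. CslF6-1 lost its call in each that left out an adaxial or abaxial library.

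Of 11 expressed hemicellulose genes 2 were higher and 1 lower in the center zone than on the adaxial side. GRMZM2G058472, annotated to glucuronoxylan synthesis, had 0.4 and 0.2 RPM in the center zone, 4.2 and 4.5 RPM adaxially and 0.5 and 0.2 RPM abaxially, so that it was low at the tip and on the abaxial side alike. Its log2 fold of -4.02 ± 0.74 was lost in each fit but that without center zone replicate 1 (adjusted p up to 0.0454). For 13 expressed light-harvesting genes no call was made in either direction against either side of the leaf. Of 55 other expressed genes of the photosynthetic light reaction 3 were higher and 1 lower, or 7.27% called beside 12% of all genes tested. GRMZM2G109244, annotated to the plastid NADH dehydrogenase, had 82.4 and 92.6 RPM in the center zone, 15 and 15.9 RPM adaxially and 18.3 and 17.5 RPM abaxially, and its fold of 2.34 ± 0.20 was called in every fit. Among 7 expansin and 5 gibberellin and GRAS genes none was called by edgeR with all 6 libraries. At an unadjusted p under 0.05, 5 expansin genes were lower and none higher, and 1 gibberellin and GRAS gene was higher and 1 lower. Without center zone replicate 1, 4 expansin genes and 2 gibberellin and GRAS genes were called lower, and DESeq2 with all libraries called 4 and 1 lower. Their median log2 folds against the adaxial side were -1.32 and -0.09.

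The contrast with the abaxial side gave values close to these for most genes. 1915 of the genes tested were called between center zone and abaxial side, or 10.6%, of which 1120 (6.22%) were higher and 795 (4.42%) lower in the center zone. The contrasts use the same center zone libraries, so their counts and folds are not independent and are given side by side without a test of overlap. The difference between them equals the contrast of the leaf sides, in which the center zone values cancel out. This difference had a median size of 0.20 on the log2 scale, and it was under 1 for 92.4% of genes. The folds themselves were under 1 for 69.7% of genes against the adaxial side and for 70.0% against the abaxial side. Calls with a change above 3 on the log2 scale numbered 283 higher and 245 lower against the adaxial side, beside 329 higher and 163 lower against the abaxial side. The abaxial count also changed widely when a library was left out.

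**Figure D4:**
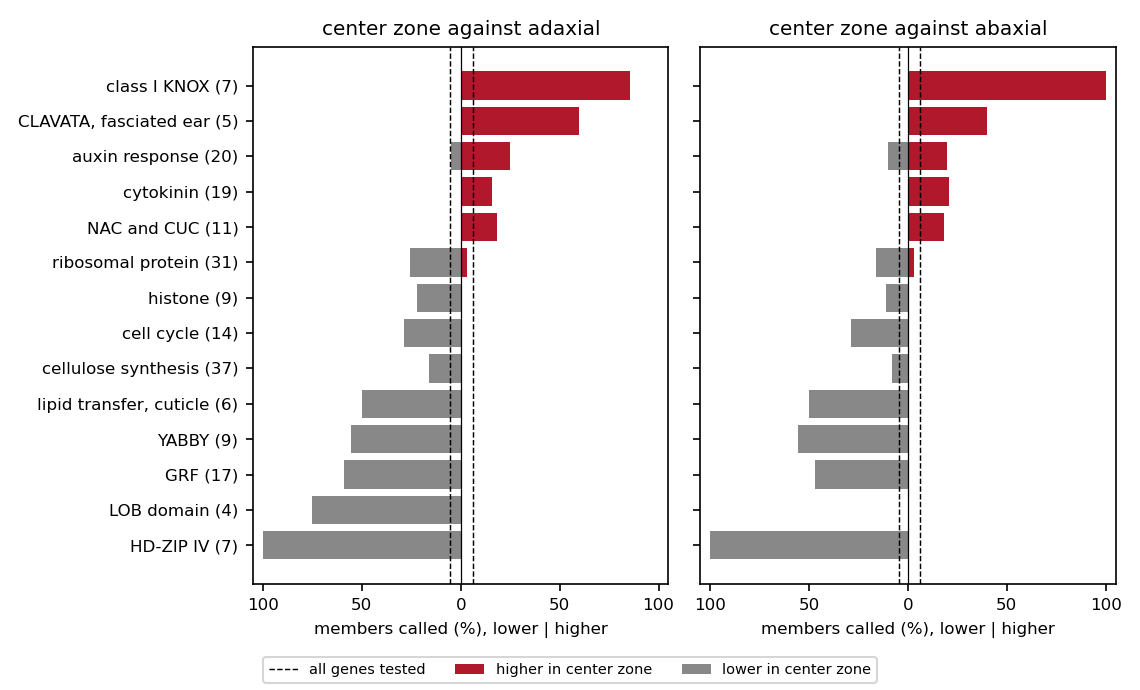
Share of expressed genes of each list called higher (right of 0) or lower (left of 0) in the center zone, in percent, against the adaxial and against the abaxial side. Dashed lines mark the share of all genes tested; class I KNOX genes stand at 6 and 7 of 7 to the right, and HD-ZIP IV genes at 7 of 7 to the left in both contrasts.

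By family, most counts were the same or differed by 1 or 2 genes. YABBY, HD-ZIP IV, cell cycle, cuticle, SBP, TCP and NAC lists had equal counts on both sides with all 6 libraries. For the LOB domain list, 3 of 4 expressed genes were lower against the adaxial side and none against the abaxial side. Without center zone replicate 1 it was 3 against both sides, and in the other fits that leave out a library 2 were lower against the adaxial side and none against the abaxial side. Its genes IG1 and ial1, close paralogs known from leaf and embryo sac patterning, were high on the adaxial side alone. The third, LOB14, had a log2 fold of -2.62 (adjusted p = 0.00812) against the adaxial and of -2.03 (adjusted p = 0.0187) against the abaxial side, so it changed its call with little change in value. Its adaxial call held only without center zone replicate 1 (adjusted p up to 0.0493 in the other fits). Cellulose synthesis had 6 and 3 lower genes, ribosomal proteins 8 and 5, and GRF 10 and 8. None of these differences between lists was tested. rld2, a class III HD-ZIP gene, had 323.7 and 461.5 RPM in the center zone, 276.5 and 177.4 RPM adaxially and 102.6 and 88.6 RPM abaxially, and was called against the abaxial side alone, a call lost without either abaxial library (adjusted p up to 0.037, log2 fold 1.93 ± 0.27).

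The test of the difference itself called 13 genes, 0.0723% of those tested, of which 9 (0.05%) were higher and 4 (0.0222%) lower on the adaxial than on the abaxial side. 5 of them had their highest mean level adaxially and their lowest in the center zone. Of these, IG1, ial1 and GRMZM2G110107 were not called between the center zone and the abaxial side (adjusted p = 0.0336, 0.0363 and 0.062). IG1 (GRMZM2G118250, chromosome 3, 169217636-169220962) had 7.2 and 3.9 RPM in the center zone, against 201.0 and 181.8 RPM adaxially and 9.7 and 10.9 RPM abaxially. Its fold was -5.27 ± 0.31 against the adaxial and -1.0 ± 0.28 against the abaxial side, and the difference of 4.27 ± 0.30 had an adjusted p of 0.00625. ial1 (chromosome 8, 164624590-164627742) had 5.0 and 3.0 RPM in the center zone, 59.0 and 63.5 RPM adaxially and 7.4 and 7.0 RPM abaxially, with a difference of 3.14 ± 0.28 (adjusted p = 0.00969). TCP30 (chromosome 3, 194884444-194887065), of a family known for control of growth, had 2.9 and 2.7 RPM in the center zone, 77.5 and 77.5 RPM adaxially and 12.3 and 10.7 RPM abaxially. It was lower in the center zone against both sides (-4.93 ± 0.22 and -2.12 ± 0.20), by a larger amount against the adaxial one.

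The other genes of this order, GRMZM2G110107 and GRMZM2G512113, have no symbol in the tables used. GRMZM2G110107 had 3.3 and 3.3 RPM in the center zone, 89.0 and 116.4 RPM adaxially and 4.2 and 7.7 RPM abaxially, and GRMZM2G512113 had 11.3 and 9.4 RPM in the center zone, 318.5 and 230.5 RPM adaxially and 57.1 and 51.6 RPM abaxially. A further pair, GRMZM5G887276 and AC189879.3_FG003, was high adaxially and low both at the tip and abaxially, with 59.8 and 65.4 RPM for the first and 131.2 and 114.9 RPM for the second on the adaxial side.

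Other orders were found as well. The auxin response factor gene ARF11 (chromosome 3, 196568222-196574187) had 39.9 and 60.0 RPM in the center zone, against 19.2 and 18.0 RPM adaxially and 131.5 and 133.4 RPM abaxially. Its calls had opposite signs, at 1.27 ± 0.24 (adjusted p = 0.00858) against the adaxial and -1.51 ± 0.24 (adjusted p = 0.00505) against the abaxial side. Its adaxial call held only without center zone replicate 1 (adjusted p up to 0.0508 in the other fits), and its abaxial call was lost when any 1 adaxial or abaxial library was left out (up to 0.0385). GRMZM5G816289 had a like order, with 93.3 and 96.5 RPM in the center zone, 29.2 and 24.7 RPM adaxially and 187.9 and 150.4 RPM abaxially. GRMZM2G113235 was graded, with 28.0 and 31.9 RPM in the center zone, 12.7 and 9.2 RPM adaxially and 0.7 and 0.9 RPM abaxially. GRMZM2G089556 had 8.8 and 13.4 RPM in the center zone and 9.9 and 7.9 RPM adaxially, which overlapped, and 0.2 and 0.2 RPM abaxially. GRMZM5G845891 and GRMZM2G070865 were high on the abaxial side alone, with 132.6 and 116.0 RPM and 47.4 and 35.0 RPM there. GRMZM2G070865 is not a member of the comparison. It was tested through the abaxial side alone, so the filter fixed its direction. None of the 13 was called when any 1 adaxial or abaxial library was left out, whereas 61 and 66 genes were called without center zone replicate 1 and without center zone replicate 2.

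**Figure D5:**
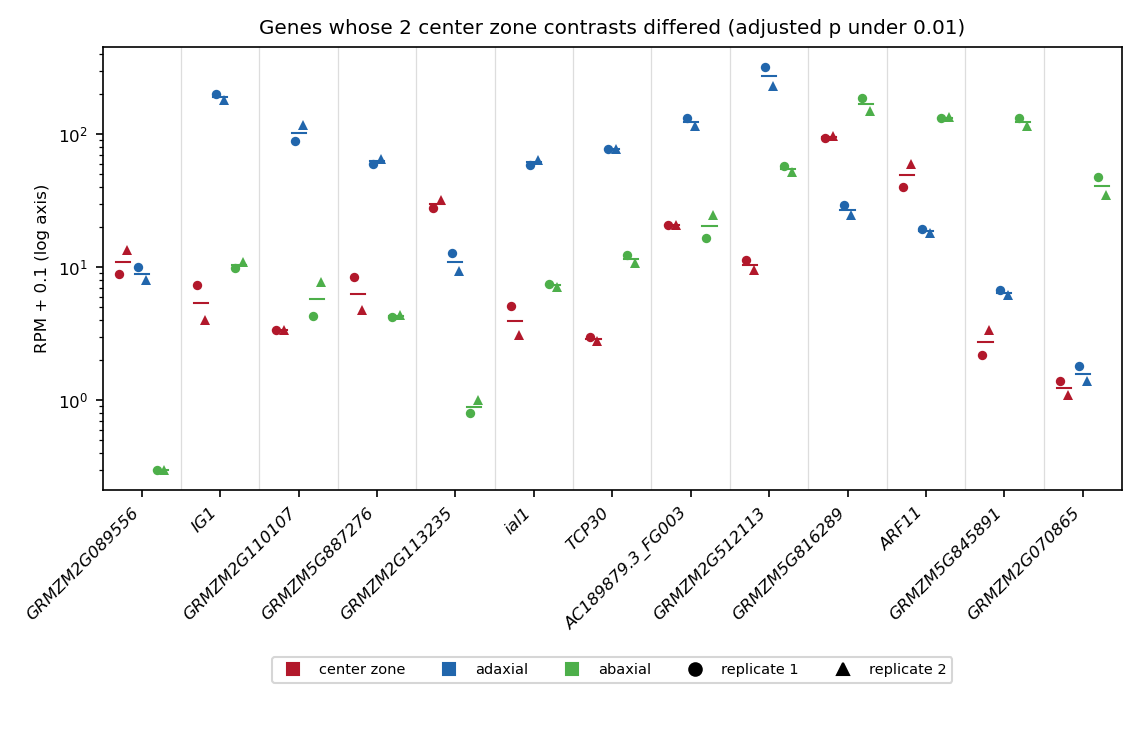
Levels of the 13 genes whose center zone contrasts differed between the leaf sides, as RPM + 0.1 on a log axis, for the center zone, adaxial and abaxial libraries from left to right within each gene. Circles are replicate 1, triangles replicate 2, and short bars the geometric mean of both. IG1 and ial1 are high adaxially alone, and ARF11 has the center zone between the leaf sides. TCP30 is highest adaxially, with its abaxial points above those of the center zone.

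At an adjusted p under 0.05 the difference was found for 44 genes, 0.245% of those tested, with 26 (0.145%) higher and 18 (0.1%) lower on the adaxial side. By the order of the domain means, 8 of them ran from center zone over adaxial to abaxial side, 9 had the adaxial side first and the center zone last, and 9 had the adaxial side first and the center zone second. The abaxial side was first for 17, with the center zone second in 11 and last in 6. Of these, GRMZM2G070865, GRMZM2G150351 and GRMZM2G152975 were tested through the abaxial side alone, so the filter put that side first. Only GRMZM2G125976 ran from the center zone over the abaxial to the adaxial side, with 188.4 and 157.6 RPM in the center zone, 10.9 and 7.6 RPM adaxially and 55.5 and 32.9 RPM abaxially.

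The graded group that fell from the tip over the adaxial to the abaxial side held CUC2, abph1 and BIF4, whose values are given above. Their differences were 3.88 ± 0.43, 3.23 ± 0.36 and 2.94 ± 0.30 on the log2 scale (adjusted p = 0.0328, 0.0288 and 0.0192). It also held GRMZM2G046313, with 232.4 and 282.9 RPM in the center zone, 2.5 and 4.1 RPM adaxially and 0.4 and 0.3 RPM abaxially, and GRMZM2G360081, with 134.8 and 101.8 RPM in the center zone, 1.8 and 1.8 RPM adaxially and 0.3 and 0.1 RPM abaxially. For these genes the fold over the abaxial side exceeded 9 on the log2 scale (9.39 and 9.37), beside 6.12 and 5.86 over the adaxial side. In the abaxial group, GLK47, a GARP-type transcription factor gene, had 1.9 and 1.2 RPM in the center zone, 2.5 and 5.4 RPM adaxially and 74.5 and 60.5 RPM abaxially. YAB11 belonged to it too (adjusted p = 0.0116).

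ARF12 and ARF23 had the center zone between the leaf sides, as ARF11 did. ARF23 had 77.3 and 106.7 RPM in the center zone, 34.4 and 35.8 RPM adaxially and 118.4 and 133.1 RPM abaxially, so the center zone was higher than the adaxial side (log2 fold 1.23 ± 0.22, adjusted p = 0.00763) and not called against the abaxial side (log2 fold -0.55 ± 0.22). That call of ARF23 held only without center zone replicate 1 (adjusted p up to 0.0403 in the other fits). The proton pump gene mha2 was the reverse, with 9.9 and 11.2 RPM in the center zone, 19.3 and 17.0 RPM adaxially and 4.8 and 4.4 RPM abaxially, and neither of its center zone contrasts was called.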

How the data were processed

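Cells were captured by laser microdissection and their RNA was linearly amplified before library preparation, per the labels. The authors trimmed bases with a Phred score under 15, aligned reads with GSNAP (version not given in the sources used here) to B73 RefGen_V3, kept unique alignments with at most 2 mismatches per 36 bp, and deposited read counts per gene for each library, unpooled. The deposited RPM values are these counts scaled by the authors to uniquely aligned reads, without correction for gene length, since amplification captures 3′ ends. They served for the filter and for levels within a gene.

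From the counts, 17993 genes with a mean of at least 2 RPM in any domain were tested with edgeR 4.0.16 in R 4.3.3 (TMM, robust quasi-likelihood F test), with all 6 libraries in 1 fit of 3 groups and a biological coefficient of variation of 30.5%. Calls have a Benjamini-Hochberg adjusted p under 0.01, as in the study's methods. The SE of a log2 fold is its size over the root of F. The procedure was also run on simulated data, whose levels and common spread were taken from these counts. Alternatives were library size alone, DESeq2 1.42.0, limma 3.58.1 (trend, prior count 2), no filter or 10 RPM, membership from 1 or 5 RPM, an adjusted p under 0.05, only the groups compared, the replicate number as a block, and leaving out each library. Counts of lists under these settings, and named genes against the abaxial side, were added once values were known.

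The comparison, its members and the gene lists were chosen with earlier results of these data known. Of the 39656 gene IDs, 18775 matched the RefSeq table of Zm-B73-REFERENCE-NAM-5.0 and 2634 had a symbol. The KNOX and HD-ZIP IV lists were set by class name with values in view, and pathway classes came from 832 entries of an annotation read in part. Genes were named by a rule: among called members without overlap between groups, the 12 largest folds a direction that had a symbol and up to 2 that had none, the 5 a direction with a symbol and the most counts, up to 4 called genes of each list a direction, genes the study names, and genes with a symbol called between the leaf sides. Outside this rule, and picked with their values in view, are lg3, lg4, knox3, knox6, knox7, HP3, ct2, ARF12, ARF23, YAB5, YAB11, yabby15, ocl1, ocl4, OCL8, GIF1, GRF1, GRF2, GRF7, GRF8, GRF12, GRF14, rld1, rld2, the KANADI genes, GLK47, mha2, the vascular and photosynthetic markers other than BM1, and the genes without a symbol in the comparison of the leaf sides. Not every gene that the rule names is described.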

Additional observations from a re-analysis of the deposited data

Results flagged for a closer look

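13 genes had center zone contrasts that differed between the leaf sides by the test of the difference itself (edgeR, adjusted p under 0.01). The log2 fold against the abaxial side exceeded that against the adaxial side by 5.34 for GRMZM2G089556, 4.27 for IG1, 4.16 for GRMZM2G110107, 3.95 for GRMZM5G887276, 3.76 for GRMZM2G113235, 3.14 for ial1, 2.80 for TCP30, 2.63 for AC189879.3_FG003 and 2.38 for GRMZM2G512113. The difference was negative, with a lower fold against the abaxial side, for GRMZM5G816289 (-2.60), ARF11 (-2.78), GRMZM5G845891 (-4.25) and GRMZM2G070865 (-4.73).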

How the results depend on the processing

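The count of genes called between the center zone and the adaxial side was 2157 with all libraries, 5125 with DESeq2, 5694 at an adjusted p under 0.05, 1067 when only the groups compared were fitted, and between 212 (without adaxial replicate 2) and 3765 (without center zone replicate 1) when a library was left out. Against the abaxial side it was 1915, then 4847 with DESeq2, 5321 at an adjusted p under 0.05, 1258 with only the groups compared, and between 218 (without abaxial replicate 1) and 3454 (without center zone replicate 1). Between the leaf sides it was 13, then 195 with DESeq2, 44 at an adjusted p under 0.05, 75 with only the groups compared, and between 0 (without adaxial replicate 1, adaxial replicate 2 or abaxial replicate 2, where edgeR left 1877, 693 and 594 genes at an unadjusted p under 0.05) and 66 (without center zone replicate 2). Without a filter on level 49 genes were called between the leaf sides. Library size alone, limma and a filter of 10 RPM kept all 3 counts within 1.5 times, and no filter those of both center zone contrasts. With library size alone the share of higher calls was 66.2%, 68.1% and 55.6% in the 3 contrasts, against 53.2%, 58.5% and 69.2% with TMM.

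The labels number the replicates in each domain, but deviations of libraries with the same number correlated at 0.016 (center zone and adaxial), -0.059 (center zone and abaxial) and 0.187 (adaxial and abaxial), so the numbers were not taken to pair the samples. With the replicate number as a block, 991 genes were called against the adaxial side, 953 against the abaxial side and 0 between the leaf sides, where 866 had an unadjusted p under 0.05.

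No named gene changed direction against the adaxial side where the main fit or the alternative called it. Changes of sign between uncalled values were not counted. Of 2126 values of 143 named genes in that contrast over these settings, 490 lost the call and 13 gained it. The number of members of the comparison ran from 15754 (5 RPM) to 19219 (1 RPM). With 2 libraries a domain, changes near a log2 fold of 1 can be missed, and depth limits levels below the floor of 0.112 to 0.196 RPM.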
